A study of Drosophila melanogaster with 2 samples.

Results

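The proteasome is the protease that degrades ubiquitin-tagged proteins in every cell. Its core particle is a barrel of alpha rings, which gate the entrance, around beta rings, which hold the cutting sites. A regulatory particle caps the barrel, with Rpt subunits, the ATPases that unfold substrates, and Rpn subunits, which bind, deubiquitinate and position them. In Drosophila several subunits have paralogues with a T or R at the end of the symbol, known mostly from the testis. The genes described here are the protein-coding genes of the Ensembl annotation whose symbol starts with Prosalpha, Prosbeta, Rpn or Rpt followed by a number, 48 of 13968 protein-coding genes. They comprise 14 standard core subunits, 18 standard regulatory subunits and 16 T or R paralogues.

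The study mapped where Spps, an Sp/KLF-type zinc finger DNA-binding protein, sits in the genome of whole Drosophila melanogaster embryos aged 0 to 12 h. The flies carried a transgene that joins GFP to the C-terminal end of Spps, and its chromatin was pulled down through the GFP. There were 2 biological replicates of this 1 group and no other condition, and both were called against the same control. How the fusion is driven is not given in the sources used here. Whole embryos mix all cell types, so a peak does not place binding in any one of them.

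The authors' peak lists hold 30000 peaks for each replicate and for both replicates pooled, and 3260 peaks in the IDR list (irreproducible discovery rate, a filter for peaks that rank alike in both replicates). The IDR peaks were the 3260 strongest pooled peaks. A gene was counted as bound where the summit of a peak lay within 500 bp of any of its transcription start sites (TSSs). Peak signal is the caller's value on a linear scale of its own in each list, so ranks (1 is the strongest) are compared between lists. The lists give no read counts, so depth is unknown, and exact (Clopper-Pearson) 95% intervals on shares cover counting of genes only.

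Regulatory particle genes held every IDR promoter summit of the family. The sequence from 60 bp before to 60 bp after the summit is shown for 3 of them that lie outside exons. It is the DNA around the peak summit at Rpn11 (the deubiquitinase of the lid), Rpn2 (a large scaffold subunit) and Rpn5 (a scaffold subunit of the lid). A summit does not show which bases Spps contacts. Each was written 5′ to 3′ on the strand of the subunit gene, from RefSeq's release 6 assembly, with capitals for any match to the 10 motifs described further on. Rpn11 is shown from chr2L:5059882-5060002 (minus strand), Rpn2 from chr3R:29153325-29153445 and Rpn5 from chr3R:5789134-5789254 (both plus strand).
Rpn11: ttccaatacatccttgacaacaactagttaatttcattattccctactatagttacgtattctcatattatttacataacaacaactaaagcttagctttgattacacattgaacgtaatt
Rpn2: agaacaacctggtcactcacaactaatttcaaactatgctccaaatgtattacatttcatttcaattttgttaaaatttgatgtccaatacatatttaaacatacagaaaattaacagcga
Rpn5: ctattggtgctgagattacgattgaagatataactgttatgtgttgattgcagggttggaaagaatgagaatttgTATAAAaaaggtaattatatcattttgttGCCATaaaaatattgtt
The Rpn11 and Rpn2 windows held no match to any of the 10 motifs. The Rpn5 window held a TATA box and a Pho core. None held the GC-rich core of Sp/KLF sites. The summits of Rpn6 and Rpn13 also lay outside exons and are not shown. BEAF-32 cores (CGATA) and a TATA box lay within 60 bp of the Rpn6 summit. Over 201 bp at the summit the GC content was 25.4% at Rpn11, 34.8% at Rpn2 and 31.3% at Rpn5, against a median of 32.3% over 1323 IDR promoter summits of all genes.

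In the IDR list 7 of 48 proteasome genes were bound (14.6%, exact 95% interval 6.07 to 27.8), beside 13.6% of all protein-coding genes, so the family as a whole stood near the background. The 7 were not spread over the complex. All were standard regulatory subunits, 7 of 18 (38.9%, 17.3 to 64.3), while 0 of 14 core subunits and 0 of 16 paralogues were bound. Counted as 3 genes of the total, a 0 allows a share of up to 21.4% for the core and 18.8% for the paralogues, and the upper exact limits were 23.2% and 20.6%. Genes with a divergent promoter (a protein-coding TSS of the other strand within 1000 bp upstream) were bound at 24.6% in the IDR list. That share lies within the regulatory interval, and 12 of 18 regulatory and 10 of 14 core genes have such a promoter. The difference between the particles was not tested, and without replicate 1 the regulatory count was 4 of 18, beside 12.9% of all genes.

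Rpn3, a scaffold subunit of the lid, had the strongest promoter peak of the family. It spanned 2L 19051759 to 19051879 (dm6) with a signal of 234 and rank 809 in the IDR list, and its summit lay in the 5′ UTR of Rpn3, 41 bp downstream of a TSS. The peak ranked 853 in replicate 1 (signal 139) and 838 in replicate 2 (signal 91.4). It was the single family member among the 1000 strongest IDR peaks, and it ranked nearly the same in both replicates.

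The other 6 IDR peaks were weaker and close to each other in signal. The peak of Rpn6, a lid scaffold subunit, spanned 2R 14752190 to 14752565. Its signal was 134, and it peaked in an intron of Rpn6, 107 bp upstream of the nearest of its TSSs. It ranked 1965 in replicate 1 (signal 86.9) and 3405 in replicate 2 (signal 39.9). Rpn11 had its peak at 2L 5059754 to 5060129 with a signal of 130 and the summit 152 bp upstream, in intergenic sequence. It ranked 2897 in replicate 1 (signal 67.9) and 1700 in replicate 2 (signal 59.9). Rpn13, a ubiquitin receptor, had its peak at 2R 13960219 to 13960594 with a signal of 127, and the summit lay 3 bp upstream of a TSS. It ranked 2978 in replicate 1 (signal 66.8) and 1681 in replicate 2 (signal 60.1). Rpn11 and Rpn13 thus ranked higher in replicate 2, and Rpn6 in replicate 1.

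Rpn5 had a signal of 120 at 3R 5789006 to 5789381. The summit lay 299 bp upstream of the Rpn5 TSS, in an intron of the neighbouring gene Hat1, a histone acetyltransferase gene. The peak ranked 2628 in replicate 1 (signal 72.4) and 2728 in replicate 2 (signal 45.2). Rpn2 had its peak at 3R 29153197 to 29153572 with a signal of 116 and the summit 139 bp upstream, in intergenic sequence. At that site it ranked 1961 in replicate 1 (signal 87.0) and 7856 in replicate 2 (signal 24.7). The strongest Rpn2 promoter summit of replicate 2 was another one, 70 bp downstream of the TSS, at rank 6383 (signal 27.6). Rpt2, the single ATPase gene among them, had its peak at 3R 23931287 to 23931662 with a signal of 110 and the summit 41 bp upstream of the nearest TSS, in the 5′ UTR of a longer Rpt2 transcript. It ranked 2271 in replicate 1 (signal 79.5) and 4359 in replicate 2 (signal 34.2). These 6 peaks ranked between 2042 and 2789 of 3260, in the weaker range of the list.

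**Figure D1:**
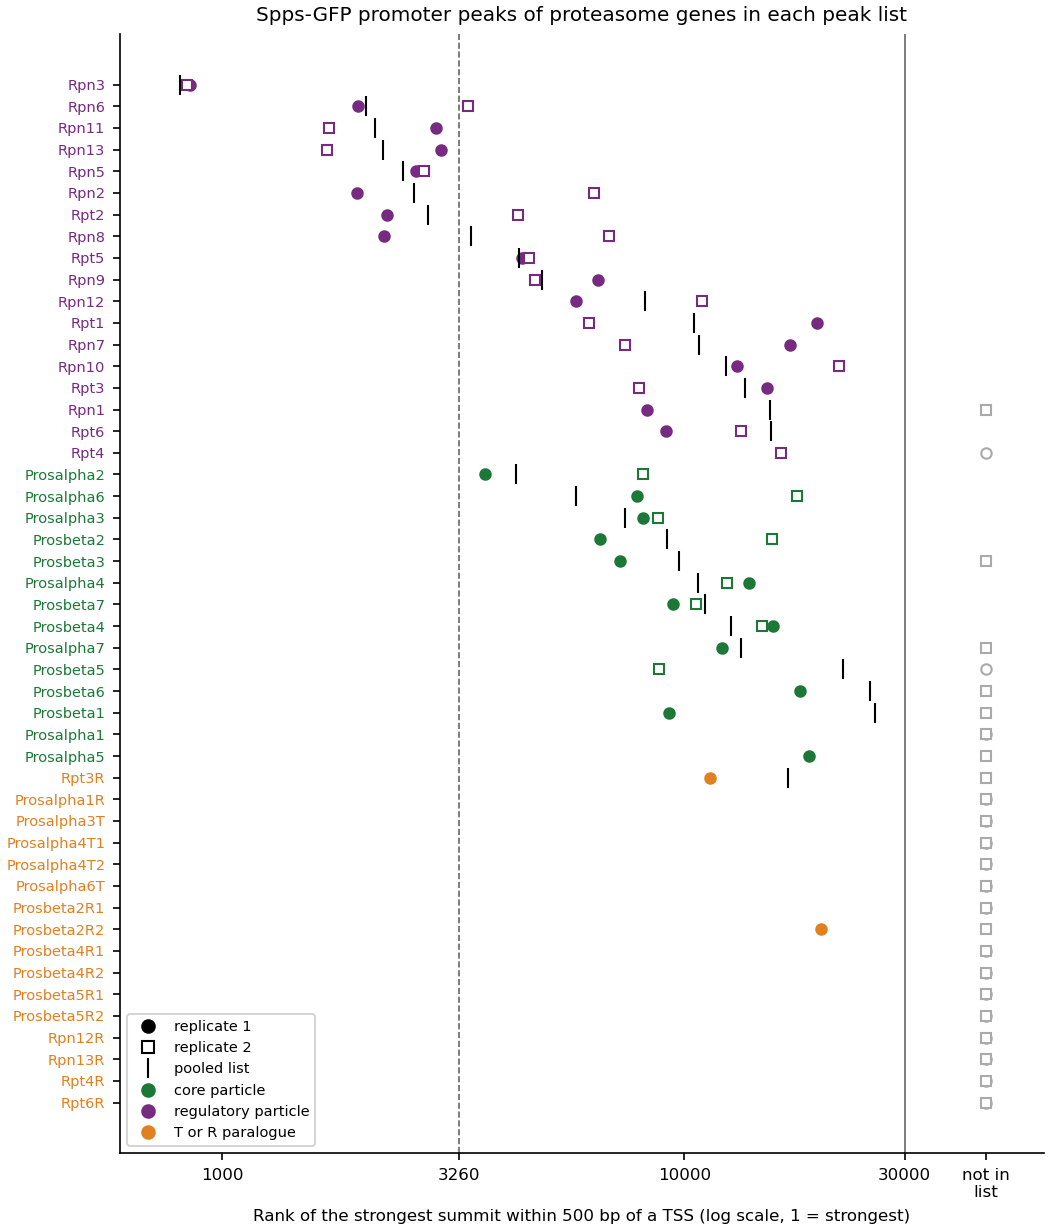
Rank of the strongest summit within 500 bp of a TSS for each of the 48 genes (x axis, log scale, 1 is the strongest), in replicate 1 (filled circles), replicate 2 (open squares) and the pooled list (black vertical ticks). Among circles and squares, purple marks regulatory subunits, green core subunits and orange T or R paralogues. The dashed line is rank 3260, where the IDR list ends, and grey symbols on the right are genes with no such summit. Pooled ticks left of the dashed line belong to 7 regulatory genes.

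Below the IDR cutoff nearly all standard subunits had a promoter summit. In the pooled list 29 of 32 standard subunits were bound (90.6%, exact 95% interval 75.0 to 98.0), beside 55.0% of all protein-coding genes. Genes with a divergent promoter, which most standard subunits have, were bound at 78.2%. The 29 were 17 of 18 regulatory and 12 of 14 core genes, with Rpt4, Prosalpha1 and Prosalpha5 missing. Among the genes in the pooled list and not in the IDR list, Rpn8, the inactive partner of Rpn11, came next with a signal of 96.7 and rank 3454. Then came Prosalpha2 (signal 83.6, rank 4329), Rpt5 (signal 83.0, rank 4383), Rpn9 (signal 76.8, rank 4927) and Prosalpha6 (signal 69.2, rank 5834). Rpn8 ranked 2234 in replicate 1 (signal 80.2) and 6876 in replicate 2 (signal 26.6). Rpn8 thus fell just outside the IDR list, and Prosalpha2 was the highest core gene.

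The regulatory genes stood higher in the pooled ranking than the core genes. The median pooled rank was 4383 over the 17 regulatory genes present, with a range of 809 to 15414. It was 10880 over the 12 core genes, with a range of 4329 to 25838, and 7130 over the 7682 protein-coding genes present. The ranges overlapped. Among the 5000 strongest pooled peaks 10 of 18 regulatory genes and 1 of 14 core genes were bound, beside 20.3% of all genes. Among the 10000 strongest the counts were 11 of 18 and 5 of 14, beside 34.8%, so the core genes stood near the background there. Among the 20000 strongest they were 17 of 18 and 9 of 14, beside 48.0%.

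**Figure D2:**
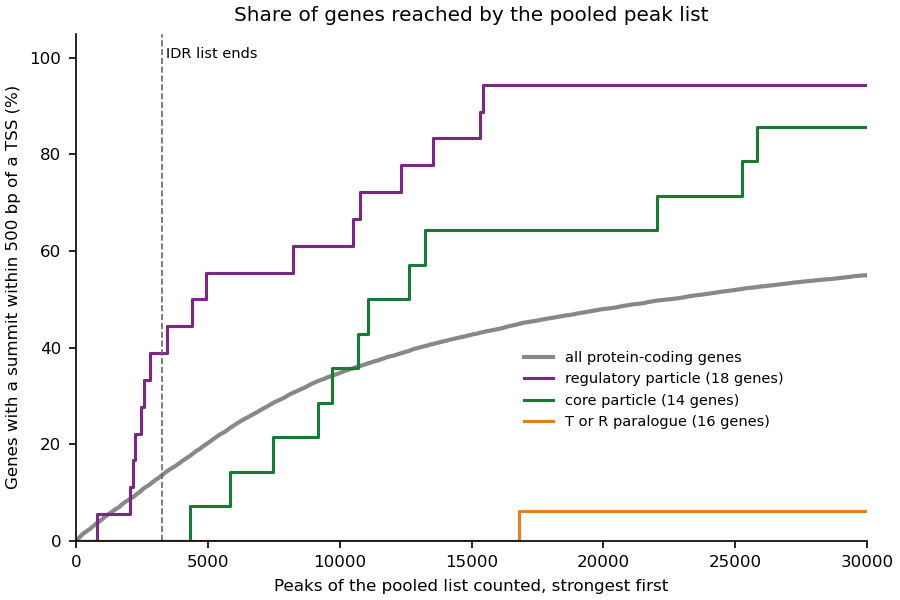
Percent of genes with a summit within 500 bp of a TSS (y axis) as the pooled peak list is read from its strongest peak down (x axis), for 18 regulatory genes (purple), 14 core genes (green), 16 T or R paralogues (orange) and all protein-coding genes (grey). The dashed line marks the end of the IDR list. The regulatory line reaches 38.9% there, and the core line leaves 0% at rank 4329.

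Each replicate alone gave the same order of the particles. In the replicate 1 list 17 of 18 regulatory and 12 of 14 core genes were bound, beside 54.9% of all genes, with median ranks of 4463 and 9349. In the replicate 2 list 17 of 18 regulatory and 8 of 14 core genes were bound, beside 51.7% of all genes, with median ranks of 6225 and 11475. The replicates share a control, and ranks of genes are not replicates of a condition.

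Both replicates had a promoter summit at 23 of 48 members (47.9%), beside 44.2% of all protein-coding genes. Of these 16 were regulatory genes and 7 were core genes. A further 8 members were in the replicate 1 list alone, 5 of them core genes, and 2 in the replicate 2 list alone (Rpt4 and Prosbeta5). The closest summits of the replicates at these 23 genes lay a median of 49 bp apart, with a range of 0 to 182 bp. The Spearman correlation of peak signal between the replicates was 0.62 over the 23 genes and 0.72 over the 6176 protein-coding genes in both lists, as a description across genes. By particle it was 0.59 over the 16 regulatory genes and 0.14 over the 7 core genes, whose order thus differed between the replicates. Prosalpha2, the highest core gene, ranked 3711 in replicate 1 (signal 58.7) and 8155 in replicate 2 (signal 24.2).

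**Figure D3:**
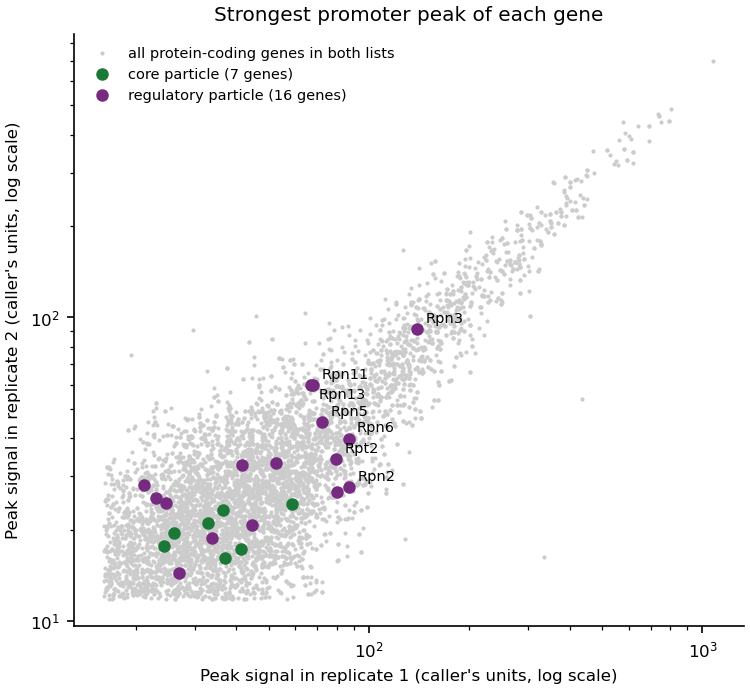
Signal of the strongest promoter peak of a gene in replicate 1 (x axis) and replicate 2 (y axis), in the caller's units on log scales, for all 6176 protein-coding genes in both lists (grey), 16 regulatory genes (purple) and 7 core genes (green). The 7 genes of the IDR list are named. Rpn3 lies apart from the other members at signals of 139 and 91.4.

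Within the regulatory particle the Rpn genes carried most of the strong peaks. Of the 12 Rpn genes 6 had an IDR summit (50%), and of the 6 Rpt genes 1 had (16.7%, near the 13.6% of all genes). The difference was not tested, and the exact 95% intervals, 21.1 to 78.9 and 0.421 to 64.1, overlapped. The pooled list had all 12 Rpn genes, with a median rank of 3024, and 5 of 6 Rpt genes, with a median rank of 10505, beside 55.0% of all genes with a median rank of 7130. Among the ubiquitin receptors, Rpn13 was in the IDR list, while Rpn10 ranked 12329 in the pooled list, with its summit 1 bp from a TSS. Rpn1, the scaffold that docks ubiquitin shuttles, ranked 15323 in the pooled list and was missing from replicate 2, where the nearest lay 1340 bp away. Rpn7 and Rpn12, 2 lid subunits, ranked 10752 and 8218. The remaining ATPase genes ranked 4383 (Rpt5), 10505 (Rpt1), 13554 (Rpt3) and 15414 (Rpt6). Rpt4 was found in replicate 2 alone, at rank 16225.

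In the core particle the alpha and beta rings did not stand apart in the IDR list, where both were at 0 of 7. In the pooled list 5 of 7 alpha genes and 7 of 7 beta genes were bound, with median ranks of 7455 and 12635, beside 55.0% of all genes with a median rank of 7130. Below Prosalpha2 and Prosalpha6 in the alpha ring stood Prosalpha3 (pooled rank 7455), Prosalpha4 (10688) and Prosalpha7 (13240), while Prosalpha5 was found in replicate 1 alone, at rank 18655. Among the structural subunits of the beta ring, Prosbeta3 ranked 9724, Prosbeta7 ranked 11071, Prosbeta4 ranked 12635 and Prosbeta6 ranked 25252. Prosbeta3, Prosbeta6 and Prosalpha7 were missing from replicate 2. The genes of the catalytic subunits are Prosbeta1, Prosbeta2 and Prosbeta5. Prosbeta2 ranked 9171, Prosbeta5 ranked 22033 and Prosbeta1 ranked 25838 in the pooled list. Prosbeta5 was missing from replicate 1, where the nearest summit lay 1117 bp from its TSS, and Prosbeta1 from replicate 2. Prosalpha1 had no promoter summit in any list, and its nearest pooled summit lay 3330 bp away.

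The T or R paralogues were almost without promoter summits. In the pooled list 1 of 16 was bound (6.25%, exact 95% interval 0.158 to 30.2), beside 55.0% of all protein-coding genes, and 10 of the 12 standard genes that they duplicate were bound there. In the replicate 1 list 2 of 16 were bound, beside 54.9% of all genes, and in the replicate 2 list 0 of 16, beside 51.7%. The one in the pooled list was Rpt3R, at rank 16803 with a signal of 34.8 and the summit 79 bp downstream of a TSS, in an intron. That summit lay closer to the TSS of Alg12, a glycosylation enzyme gene, 60 bp away. Rpt3R ranked 11363 in replicate 1 and was not in the replicate 2 list. Prosbeta2R2 was in the replicate 1 list alone, at rank 19725.

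For the other 14 paralogues no list held a promoter summit. They are Prosalpha1R, Prosalpha3T, Prosalpha4T1, Prosalpha4T2, Prosalpha6T, Prosbeta2R1, Prosbeta4R1, Prosbeta4R2, Prosbeta5R1, Prosbeta5R2, Rpn12R, Rpn13R, Rpt4R and Rpt6R. Over the 15 paralogues outside the pooled list, the nearest pooled summit lay between 2124 bp (Prosbeta2R2) and 30862 bp (Prosbeta5R1) from a TSS, with a median of 6595 bp. Rpn13R is the paralogue whose standard gene had an IDR peak, and its own nearest pooled summit lay 6595 bp away. Because every full list stops at 30000 peaks, a missing peak is no proof of absent binding.

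Summits at the standard subunits lay mostly upstream of the TSS. The strongest pooled summit was upstream at 82.8% of the 29 standard genes present, beside 71.8% of all protein-coding genes present. Its median position was -109 bp for the regulatory genes and -54.5 bp for the core genes, beside -98 bp for all genes. In replicate 2 the share upstream was 56.0% over 25 standard genes, beside 69.8% of all genes, and in replicate 1 it was 79.3% over 29. No member sat at the edge of the 500 bp window in the IDR list: the farthest inside was Rpn5 at 299 bp, and the nearest outside was Prosbeta6 at 1918 bp. For pooled peaks these were a second Rpn13 summit at 487 bp and Prosbeta2R2 at 2124 bp.

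**Figure D4:**
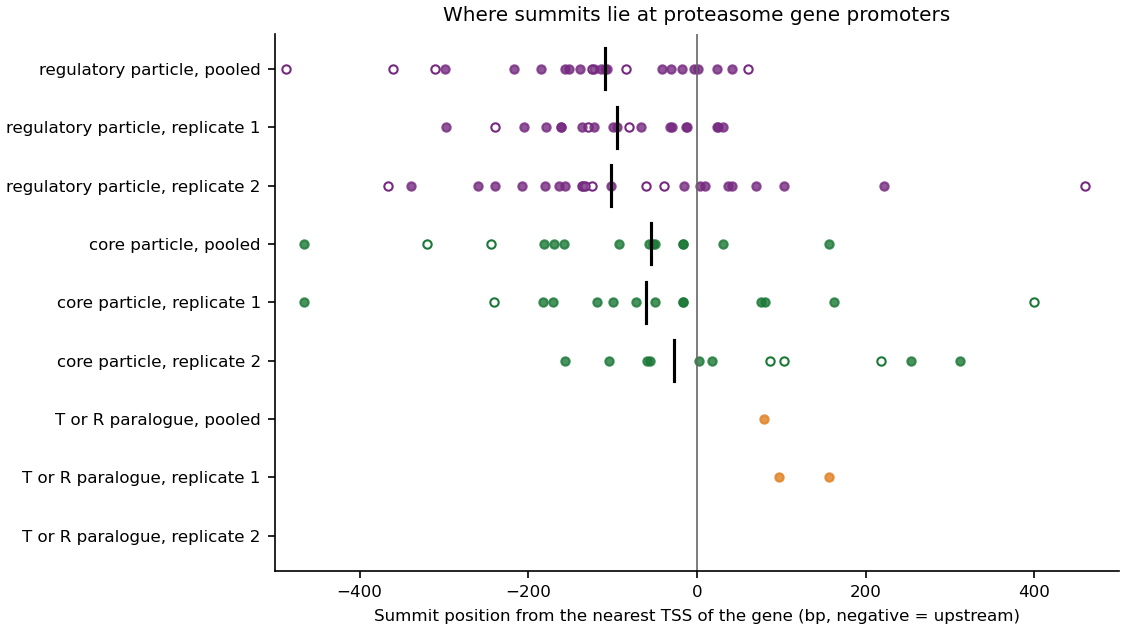
Position of member summits relative to the nearest TSS of the gene (x axis, bp, negative is upstream) in the pooled and replicate lists, by group. Filled points are the strongest summit of each gene, open points its other summits, and black bars the median over strongest summits. In the pooled list the bar is at -109 bp for the regulatory and -54.5 bp for the core genes.

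Most standard subunit genes share their promoter region with a neighbour on the opposite strand. A protein-coding TSS of the other strand lay within 1000 bp upstream at 22 of 32 standard genes (68.8%) and 4 of 16 paralogues (25%), beside 36.2% of all protein-coding genes. Genes with such divergent promoters were bound more often in general, at 24.6% in the IDR list against 7.34% of the others. Among the regulatory genes 6 of 12 with a divergent promoter and 1 of 6 without had an IDR summit. Among the core genes 0 of 10 with and 0 of 4 without had one. In the pooled list 20 of 22 standard genes with a divergent promoter were bound, beside 78.2% of all such genes, and 9 of 10 without, beside 41.8%. For the paralogues these counts were 1 of 4 and 0 of 12. Divergent promoters made up 71.4% of the core genes and 66.7% of the regulatory genes. Regulatory genes more often had several TSSs, with 10 of 18 having 1 TSS against 12 of 14 core genes and 73.5% of all genes. In the IDR list 10.3% of genes with 1 TSS were bound, and the part of TSS number in the difference was not tested.

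At 6 of the 7 IDR sites the same summit lay within 500 bp of a TSS of another protein-coding gene. Shared summits were common in the IDR list, where 1897 bound protein-coding genes had 1323 promoter summits among them. The share of shared summits over all genes was not counted, so the 6 of 7 is no trait of the family. Rpn2 shared its summit with Slbp, the gene for the histone mRNA stem-loop binding protein, which was nearer (119 bp against 139 bp). Rpn5 shared its summit with Hat1, which was also nearer (120 bp). Rpn6 shared with ave, a gene of Ras pathway signalling (143 bp), Rpn13 with CtsL1, a cathepsin gene (268 bp), Rpn3 with l(2)37Bb (219 bp) and Rpt2 with CG13599 (164 bp). Rpn11 had no other TSS within 500 bp. When a summit counted for the closest TSS and no other, 5 members were bound, without Rpn2 and Rpn5. The lists cannot assign a shared summit to one of the 2 genes.

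The DNA replication-related element (DRE, TATCGATA), a core promoter motif of housekeeping genes, was common at the standard subunits of both particles. It was found in the 300 bp from 250 bp upstream to 50 bp downstream of the outermost TSS at 6 of 14 core genes, 6 of 18 regulatory genes and 0 of 16 paralogues, beside 9.36% of 13968 protein-coding promoters of that length. Sequences around the DRE are shown for members of both particles, with the DRE in capitals, 5′ to 3′ on the strand of the gene and from the same RefSeq assembly. The windows are chr2L:10221321-10221356 for Prosalpha6, chr3L:14999927-14999962 for Prosbeta2, chr3L:16582798-16582833 for Rpn12 and chr3R:23752816-23752851 for Rpt5 (plus strand), and chr3L:16610441-16610476 for Prosbeta6 and chr3R:22462030-22462065 for Rpn7 (minus strand).
Prosalpha6: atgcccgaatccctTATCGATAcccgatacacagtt
Prosbeta2: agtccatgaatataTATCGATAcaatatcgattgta
Prosbeta6: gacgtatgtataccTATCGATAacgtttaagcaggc
Rpn12: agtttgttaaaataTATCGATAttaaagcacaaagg
Rpn7: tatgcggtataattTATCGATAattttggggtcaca
Rpt5: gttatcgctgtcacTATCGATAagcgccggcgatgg
The DRE began 16 bp upstream of the TSS at Prosalpha6, 10 bp at Prosbeta2, 44 bp at Prosbeta6, 46 bp at Rpt5 and 216 bp at Rpn12, and 3 bp downstream at Rpn7. None of these 6 genes had an IDR summit. The other 6 with a DRE were Rpn3 and Rpn13, which had one, and Prosalpha3, Prosalpha5, Prosbeta1 and Rpn9, which had not. Within 100 bp of the strongest promoter summit the DRE lay at 1 of 7 members in the IDR list (Rpn3), beside 6.42% of 1323 IDR promoter summits. Among pooled summits it lay at 3 of 12 core and 3 of 17 regulatory genes, beside 6.51% of 6035 promoter summits. The presence of a DRE thus did not follow the split between the particles in the IDR list.

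The other motifs were searched on both strands in the same 300 bp windows. For genes with several TSSs, among them Rpn6 and Rpn8, this window can lie away from the bound TSS. The BEAF-32 core (CGATA), which lies within the DRE, was found at 27 of 32 standard genes (84.4%), beside 47.3% of all promoters. The Motif 1 core (GGTCACAC) was found at 5 of 32 (15.6%, beside 7.69%). The CNC-Maf antioxidant response element (TGACNNNGC), the site type through which cnc is known to act, was found at 5 of 32 (15.6%, beside 8.62%), namely Prosalpha2, Prosbeta3, Rpn1, Rpn7 and Rpt6. At Prosbeta3 and Rpn1 a match overlapped that of the Motif 1 core, so the counts of these motifs are not independent. The E-box (CAGCTG) was found at 1 of 32 (3.12%, beside 17.6%) and the core of GAGA factor sites, GAGAG, at 3 of 32 (9.38%, beside 29.7%). The Sp/KLF core (GGGCGGG or GGGCGTG) was found at 2 of 32 (beside 2.66%), Rpn6 and Rpt4, and the GC box (GGGCGG) at 2 of 32 (beside 5.96%). The Rpn6 window lies at its TSS at 2R 14752910, not at the TSS nearest its IDR summit, 2R 14752271. The TATA box (TATAAA) was found at 13 of 32 (40.6%, beside 45.8%) and the Pho core (GCCAT) at 10 of 32 (31.2%, beside 41.2%).

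Directly under the IDR summits the Sp/KLF core was absent from all 7 members, beside 1.13% of IDR promoter summits of all genes. The CNC-Maf element, the Motif 1 core and the E-box were likewise at 0 of 7, beside 4.46%, 4.99% and 8.84%. At pooled summits the E-box lay at 3 of 17 regulatory and 0 of 12 core genes, beside 12.2% of all promoter summits. The TATA box was at 4 of 7 (beside 43.2%) and the BEAF-32 core at 4 of 7 (beside 35.2%). With 7 windows these counts are descriptions. The GC content at the 7 summits ran from 25.4% to 38.3%, with a median of 31.8%. At pooled summits the median was 33.3% over 17 regulatory and 37.3% over 12 core genes, beside 38.3% over all promoter summits.

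Other genes of the ubiquitin-proteasome pathway were counted as well, and the interval of their IDR share included the share of all genes. Of 24 such genes found in the annotation, 5 had an IDR promoter summit (20.8%, exact 95% interval 7.13 to 42.2, beside 13.6% of all genes), and 23 had one in the pooled list (beside 55.0%). Pomp, the gene of the factor that assists assembly of the core particle, had the strongest, at 2L 20787329 to 20787456 with a signal of 225 and the summit at -232 bp from the TSS. It ranked 809 in replicate 1 and 1057 in replicate 2, close to the ranks of Rpn3. The others were cnc, a bZIP transcription factor known to activate proteasome genes (signal 132), Plap, a ubiquitin-binding adaptor (signal 121), PI31, a proteasome-binding regulator (signal 119), and Rad23, a ubiquitin shuttle (signal 112). For cnc, which has 10 TSSs, the strongest promoter summits of the 2 replicates lay at different TSSs. PSMG1 was the gene missing from the pooled list.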

How the data were processed

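ChIP-seq with an anti-GFP antibody covered 2 embryo samples. Chromatin was sonicated, and the labels give 200 to 800 bp as its size range. The deposited lists are narrowPeak files on dm6. Per the text listings deposited with the samples, each replicate list came from that replicate's alignment and 1 shared control, the pooled list from both alignments, and the IDR list from all 3. The sources used here do not give the aligner, the peak caller or the IDR threshold. Peak signal was used as deposited by the authors. The deposited −log10 q-value, a single value throughout the IDR list, was left aside. Summits are the deposited offsets, written 1-based.

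Genes and TSSs came from Ensembl release 115 (BDGP 6.54) and sequence from RefSeq release 6, whose arms reach past every gene and peak of each arm. Members and gene lists were chosen with earlier results of these data known. Of 27 listed pathway symbols 24 matched. The text names every member with an IDR summit, the 5 strongest pooled ones outside it, every paralogue, the genes that share an IDR summit, the members nearest the window's edge and the listed pathway genes with an IDR summit. Other members were named for their values after these were seen. No test was made: counts stand beside those of all protein-coding genes, and genes are not replicates. Alternatives were other windows, TSS sets, peak numbers and each replicate alone. Protein sequences of the paralogues were not analysed here. Summit assignment was tested on simulated summits. Intervals came from SciPy 1.17.1, tables from pandas 2.3.3 and NumPy 2.4.6, and plots from matplotlib 3.10.9, under Python 3.11.15.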

Additional observations from a re-analysis of the deposited data

How the results depend on the processing

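The count of 7 bound members, all regulatory, was 6 with a window of 250 bp (beside 10.9% of all genes), 5 with the nearest TSS alone (9.61%) and 7 with a window of 1000 bp (15.7%), with coding transcripts alone (13.6%) or with peak overlap (14.4%). Among the 1000 strongest IDR peaks it was 1 of 48 (Rpn3, beside 4.52%). Without replicate 1 or 2, taking the 3260 strongest peaks of the other, it ranged from 4 of 48 (Rpn3, Rpn5, Rpn11 and Rpn13, beside 12.9%) to 8 (those of the IDR list and Rpn8, beside 14.1%), and core genes stayed at 0 under each of these alternatives. The paralogues, 0 in the IDR list, were 0 without either replicate and 1 in the full pooled list. The 23 members in both replicate lists were 16 among the stronger 15000 peaks of each list (beside 33.0%), 18 with summits within 100 bp of each other (32.8%), 22 with a window of 250 bp (33.7%), and 25 (51.7%) to 31 (54.9%) with a replicate left out. The 5 other pathway genes were 3 with a window of 250 bp (beside 10.9%) and 6 with a window of 1000 bp (15.7%). Without replicate 1 the count was 6 (beside 12.9%), with 3 of the 5 among them. Without replicate 2 it was 7 (beside 14.1%), with 4 of the 5. No paired analysis was possible because there was 1 group. Read depth is unknown, and with 14 to 18 genes a group a share has a wide interval.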
